A study of Homo sapiens with 2 samples.

Results

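Mitotic spindle, kinetochore and cytokinesis genes were examined after RNA interference against IFITM1 in the HT-29 line, which comes from a human adenocarcinoma of the colon or rectum. The set holds 45 genes, chosen by their known roles in cell division and with earlier results of these arrays known, out of 19775 genes measured, and all 45 were found in the deposited table. Total RNA of 1 sample transfected with a small interfering RNA (siRNA) against IFITM1 (siIFITM1) was compared with that of 1 sample transfected with an siRNA against firefly luciferase (siLuc), the baseline, both taken 72 h after transfection. Both groups share the cell line, the transfection and the time, and 1 siRNA label stands for each. Each sample was read on 1 single-colour Affymetrix array, so no spread between replicates is known, no test was made and no p-value is given.

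Mitosis starts when cyclin B binds and switches on the kinase CDK1, helped by CDC25 phosphatases. Chromosomes then attach to spindle microtubules through kinetochores, protein assemblies built on centromeres, and a checkpoint holds the cell until every kinetochore is attached. The anaphase-promoting complex (APC), a ubiquitin ligase, ends the arrest, kinesin motors and bundling proteins reshape the spindle, and a contractile ring divides the cell. Most of these genes are transcribed late in the cell cycle, so that their mRNA in a culture is widely used as a readout of how many cells are dividing.

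The signal of IFITM1, the targeted gene and an interferon-induced membrane protein, was 237 with siIFITM1 and 640 with siLuc, a log2 ratio of -1.43. Median signals were 59.7 and 63.9 on the siIFITM1 and siLuc arrays. As a sign of RNA integrity, 3' over 5' signal had a log2 value of -0.11 with siIFITM1 and -0.13 with siLuc for GAPDH, and 0.13 and 0.12 for beta-actin. The 18 hybridisation control probe sets had a median log2 ratio of -0.07, with a range of -0.13 to 0.05. Of 12 markers of colon epithelium, 10 passed the filter on dim signals, and the signals of all 12 summed to 189032 with siIFITM1 and 185998 with siLuc. The intestinal transcription factor genes CDX1 and CDX2 did not pass, with CDX2 at 19.1 with siIFITM1 and 5.87 with siLuc. Of 4 leukocyte markers measured 2 passed, and the summed signal of 20889 with siIFITM1 and 24276 with siLuc was almost all LYZ, which gut epithelium also makes, while CD14, which also passed, had 185 and 232. PTPRC and CD3E were below the filter, with PTPRC at 49.3 with siIFITM1 and 13.7 with siLuc and CD3E at 40.5 and 67.1. Of 7 fibroblast and endothelial markers 4 passed, summing over the 7 to 858 with siIFITM1 and 746 with siLuc. Of the 4, LUM was higher with siIFITM1 (386 and 132) and COL1A1, DCN and PECAM1 were lower, by log2 ratios of -0.49, -0.51 and -0.24, while COL3A1, CDH5 and VWF were below the filter. Signals below the filter were too dim to be read. Both samples are of 1 cell line, and the part of other cell types in the results was not tested.

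Mitosis genes mostly had a slightly higher signal with siIFITM1. Each gene is represented by the brightest of its probe sets (groups of probes against a stretch of mRNA), judged by mean log2 signal, and a log2 ratio is siIFITM1 over siLuc throughout. All 45 passed the filter, which kept 12225 genes whose mean signal was at or above 57.4, and all 45 were also above the 75th percentile of probe sets, a signal of 393. On the siIFITM1 array 37 of 45 genes had the higher signal (82.2%), against 47.4% of all genes past the filter. The median log2 ratio of the 45 was 0.13, a 1.09-fold higher signal, with an interquartile range of 0.04 to 0.25, while the median over all genes past the filter was -0.02. More dividing cells in a culture and more mRNA per dividing cell cannot be told apart in such bulk RNA.

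The sizes were small. At least 25% higher with siIFITM1 were 7 of 45 genes (15.6%), close to the 12.9% of all genes past the filter. The 15.6% was above the 8.68% of genes of similar signal described below. This count thus depends on the background taken, and no result about mitosis genes is drawn from it. None of the 45 was at least 20% lower, which is the same fold in the other direction, against 17.4% of all genes. No member was 1.5-fold apart in either direction, where 4.18% of all genes were higher by that much and 7.34% were lower. Log2 ratios scatter less at high signal, and therefore the 5035 genes in the signal range of the members, with mean signals from 944 to 16277, were taken as a closer background, a choice made after the data were seen. Of these, 52.7% had the higher signal with siIFITM1, 8.68% were at least 25% higher and 6.77% at least 20% lower, and their median log2 ratio was 0.01. The 45 genes thus lay on the siIFITM1 side in a greater share than these genes did. Whether this would recur in other cultures was not tested.

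**Figure D1:**
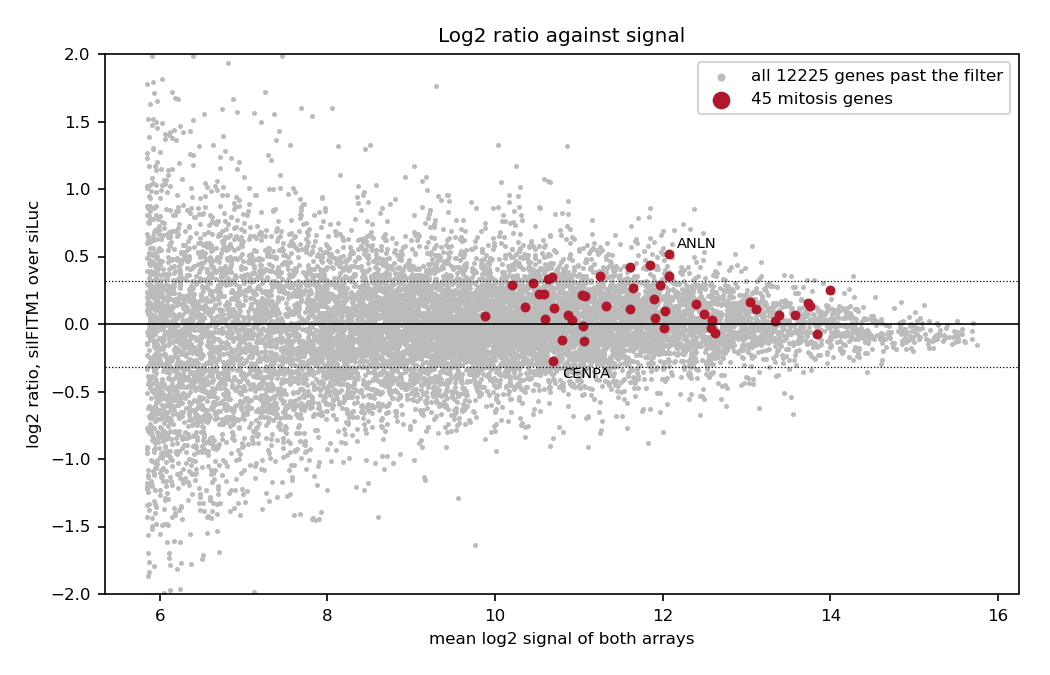
Log2 ratio of siIFITM1 over siLuc (vertical axis) against mean log2 signal of both arrays (horizontal axis) for 12225 genes past the filter (grey) and the 45 mitosis genes (red), with dotted lines at 25% higher and 20% lower; 30 genes beyond a log2 ratio of 2 in either direction are not drawn. The red points lie mostly just above 0, between -0.28 (CENPA) and 0.52 (ANLN), inside the cloud of genes of the same signal.

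A measure of error comes from the 22 members that were read by several probe sets past the filter, although probe sets of 1 gene share the RNA and are not replicates. Within a member, log2 ratios of different probe sets had an SD of 0.21. The SD between the main values of the 45 members was 0.16, so the order of single genes within the set is not settled by these arrays. Above 0 by more than 0.21 were 15 members (17.9% of genes in the same signal range were), and below 0 by more than 0.21 was CENPA alone (15% were in that range). The other 29 lay within it.

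**Figure D2:**
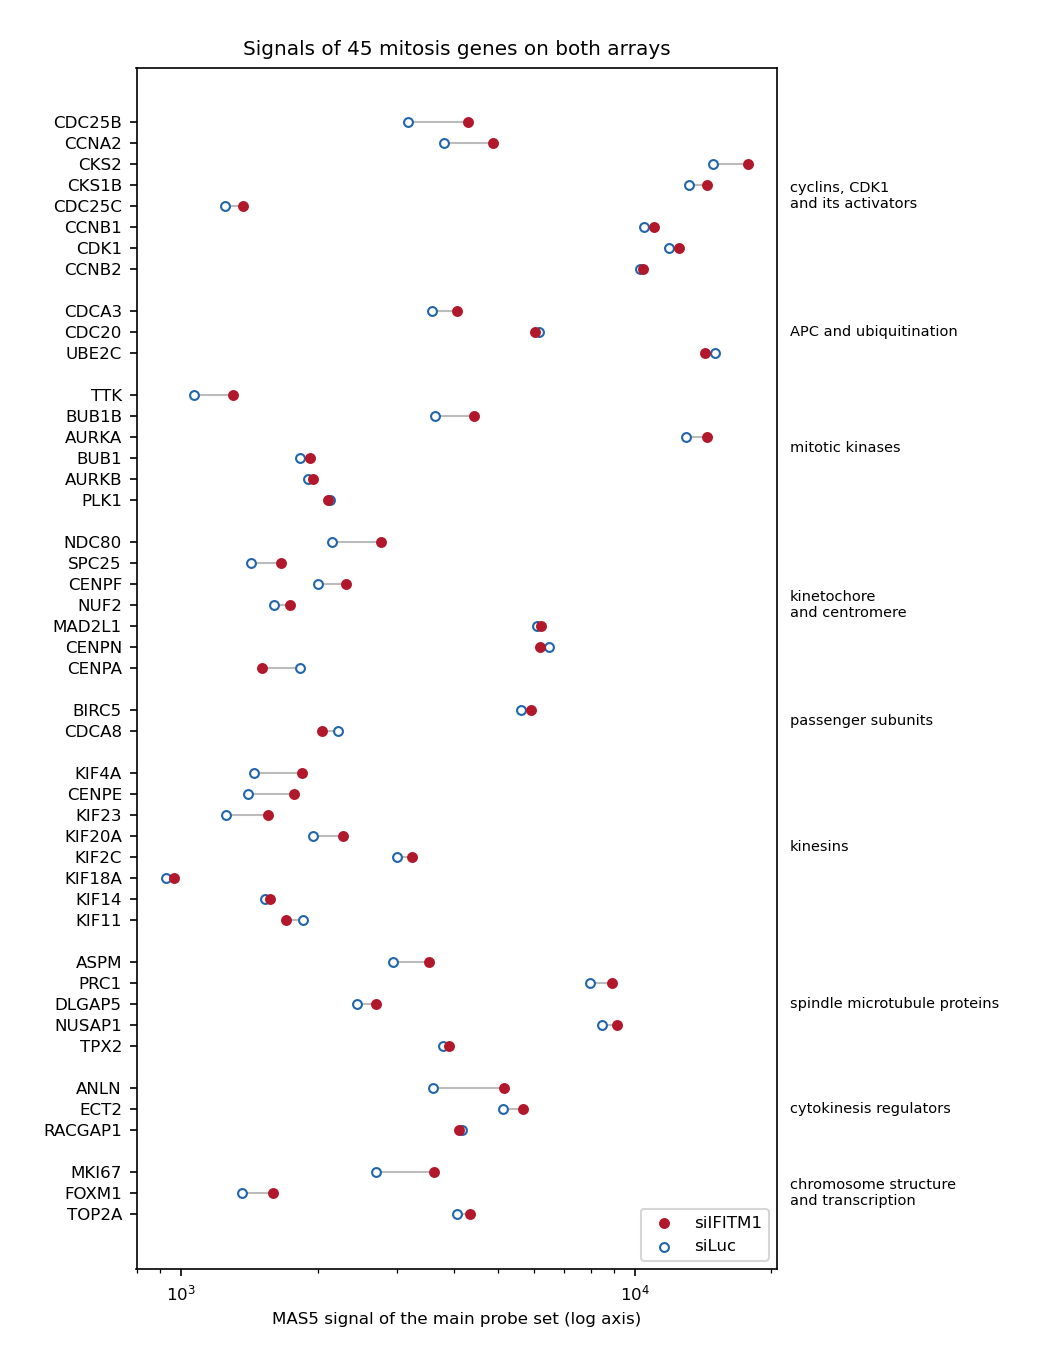
MAS5 signal of the main probe set (horizontal log axis) of each of the 45 mitosis genes on the siIFITM1 array (filled red) and the siLuc array (open blue), grouped by role; signals are to be compared within a gene and not between genes. The filled point lies to the right in 37 genes, with the widest gap for ANLN.

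Cyclins, CDK1 and its activators were all on the same side, with 8 of 8 genes higher with siIFITM1 and a median log2 ratio of 0.13. Beside this count and those of the small groups below stands the 52.7% of genes in the same signal range that were higher. CCNA2, the cyclin that acts from S phase into early mitosis, had a signal of 4873 with siIFITM1 and 3806 with siLuc, a log2 ratio of 0.36, and its second probe set gave 4075 and 3173, again 0.36. The B-type cyclins that drive entry into mitosis stayed near equality. CCNB1 had 11012 with siIFITM1 and 10492 with siLuc (0.07), and CCNB2 had 10446 and 10297 (0.02). For their partner CDK1 the main probe set gave 12497 with siIFITM1 and 11920 with siLuc (0.07), but its 4 probe sets ran from -0.32 to 0.18. CDC25B, a phosphatase that removes the inhibitory phosphates of CDK1, had 4301 with siIFITM1 and 3172 with siLuc, a log2 ratio of 0.44 on 1 probe set. Its relative CDC25C had 1370 and 1253 (0.13), and all 3 of its probe sets were higher, by 0.09 to 0.25. The small CDK-binding subunits CKS1B and CKS2 were at 0.13 and 0.25, with CKS2 at 17768 with siIFITM1 and 14912 with siLuc. Within this group, CDC25B and CCNA2 were at least 25% higher. These arrays do not settle the order of single genes, so no ranking within the group is drawn.

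Of 3 genes grouped as APC and ubiquitination (the APC group), CDC20 and UBE2C were close to level and CDCA3 was higher. CDC20, the protein that activates the APC at the end of metaphase, had 6019 with siIFITM1 and 6149 with siLuc (-0.03). UBE2C, the ubiquitin-conjugating enzyme of the APC, had 14266 and 15020 (-0.07). CDCA3, which has been linked in frog extracts to the destruction of the CDK1 inhibitor WEE1, had 4054 with siIFITM1 and 3573 with siLuc, a log2 ratio of 0.18, and its second probe set was at 0.16. The median of these 3 genes was -0.03.

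Mitotic kinases had a median log2 ratio of 0.11, with 5 of 6 above 0. TTK, also called MPS1, which starts the spindle checkpoint, had 1305 with siIFITM1 and 1066 with siLuc (0.29). BUB1B, whose protein BubR1 is part of the inhibitor that the checkpoint sends to the APC, had 4423 and 3626 (0.29). Both were just under 25% higher. BUB1, which marks centromeric chromatin for other checkpoint proteins, had 1923 with siIFITM1 and 1833 with siLuc (0.07), and its 3 probe sets past the filter spanned -0.18 to 0.10. PLK1, the polo-like kinase of mitotic entry and centrosome maturation, was level at 2111 with siIFITM1 and 2135 with siLuc (-0.02). AURKA, the kinase of the spindle poles, had 14425 and 12946 (0.16), while its dimmest probe set was at -0.19. AURKB, the kinase of the chromosomal passenger complex, had 1950 with siIFITM1 and 1908 with siLuc (0.03), and a dim second probe set, at 75.5 and 48.1, gave 0.65.

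Of 7 kinetochore genes 5 were above 0, with a median of 0.12. NDC80, the microtubule-binding core of the NDC80 complex, had 2756 with siIFITM1 and 2150 with siLuc (0.36). Its partners followed in the same direction, with SPC25 at 1662 and 1424 (0.22) and NUF2 at 1737 and 1600 (0.12). The last part of that 4-protein complex, SPC24, which is not among the 45, had 1107 with siIFITM1 and 874 with siLuc (0.34), although another probe set of it was at -1.42. SPC24 is named here as 1 of the 3 highest genes of its list, so its side was given by that choice. The values of the complex were therefore not counted together. CENPF, a large kinetochore protein of late cell cycle stages, had 2311 with siIFITM1 and 2000 with siLuc (0.21), with a dimmer probe set at -0.10. MAD2L1, the checkpoint protein MAD2, was close to level at 6220 and 6103 (0.03), and its 3 probe sets were all slightly higher.

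The other kinetochore genes, CENPA and CENPN, had main values below 0. CENPA, the histone H3 variant that marks where a centromere lies, had 1507 with siIFITM1 and 1827 with siLuc, the lowest log2 ratio of the 45 at -0.28. That reading rests on 1 probe set with probes shared between transcripts. Another probe set, annotated to both CENPA and SLC35F6 and so not counted, had 4252 with siIFITM1 and 4102 with siLuc (0.05). CENPN, which binds nucleosomes that carry CENPA, had 6194 and 6469 (-0.06), and its 4 probe sets spanned -0.25 to 0.33. The lower value of CENPA was therefore not shared by the other probe set that names it.

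Subunits of the chromosomal passenger complex, which corrects faulty attachments, showed no common side. BIRC5, or survivin, had 5902 with siIFITM1 and 5618 with siLuc (0.07), yet 4 probe sets ranged from -0.26 to 0.10. CDCA8, or borealin, had 2041 and 2223 (-0.12). INCENP, the scaffold of the complex and not among the 45, had 587 with siIFITM1 and 464 with siLuc (0.34). AURKB, the kinase of the complex, was at 0.03. INCENP was named after its value was seen, so the values of the complex were not counted together.

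Kinesins, the motors of the spindle, had a median log2 ratio of 0.16, with 7 of 8 above 0. KIF4A, a chromosome-bound motor that also works at the central spindle, had 1845 with siIFITM1 and 1449 with siLuc (0.35). CENPE, the kinetochore motor that carries chromosomes to the spindle equator, had 1778 and 1408 (0.34). These were the members among the kinesins that were at least 25% higher, each on a single probe set. KIF23, a part of the centralspindlin complex of cytokinesis, lay just under that size with 1554 with siIFITM1 and 1259 with siLuc (0.30), and its dim second probe set was level at -0.03. KIF20A, needed to move the passenger complex to the central spindle, had 2272 and 1954 (0.22). The microtubule-depolymerising KIF2C had 3235 with siIFITM1 and 2998 with siLuc (0.11). KIF18A, which dampens chromosome movements at the equator, was at 0.06, and KIF14, a cytokinesis motor, was at 0.04 with a second probe set at 0.32. KIF11, the motor that pushes the spindle poles apart, was the exception, with 1706 with siIFITM1 and 1854 with siLuc (-0.12).

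All 5 genes of other spindle microtubule proteins were higher with siIFITM1, with a median of 0.14 and the narrowest range of any group above 3 genes, 0.04 to 0.27. ASPM, a spindle pole protein, had 3528 with siIFITM1 and 2928 with siLuc (0.27), and all 3 of its probe sets were higher, by 0.18 to 0.27. PRC1, which bundles antiparallel microtubules, had 8916 and 7963 (0.16). DLGAP5, or HURP, which stabilises microtubules near chromosomes, had 2691 with siIFITM1 and 2449 with siLuc (0.14). NUSAP1, a microtubule-binding protein of chromosome surroundings, was at 0.11 and 0.08 on its 2 probe sets. TPX2, the activator of AURKA at the spindle, was level at 3891 with siIFITM1 and 3781 with siLuc (0.04).

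Cytokinesis regulators held the highest value of the whole set. ANLN, or anillin, the scaffold of the contractile ring, had 5141 with siIFITM1 and 3592 with siLuc, a log2 ratio of 0.52 and 1.43-fold higher. A second probe set, at 3358 with siIFITM1 and 2389 with siLuc, gave 0.49. Of the 5035 genes in the signal range of the members, 2.42% had a log2 ratio as high as that of ANLN. ECT2, the exchange factor that switches on the small GTPase RhoA at the division plane, had 5674 and 5123 (0.15), but its other probe sets gave -0.11 and, at a much dimmer one, -0.62. RACGAP1, the partner of KIF23 in centralspindlin, was level at 4094 with siIFITM1 and 4172 with siLuc (-0.03). The pair of centralspindlin genes therefore gave values of 0.30 and -0.03.

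MKI67, the gene of the proliferation marker Ki-67, had 3604 with siIFITM1 and 2692 with siLuc (0.42), and its second probe set gave 0.43. The 2 dimmer probe sets of MKI67 were on the other side or level, at -0.20 and -0.03. FOXM1, a transcription factor that activates many genes of this set, had 1593 with siIFITM1 and 1366 with siLuc (0.22). TOP2A, the topoisomerase that untangles chromosomes before they separate, had 4332 and 4051 (0.10) at its main probe set, while its second, almost as bright, had 3773 with siIFITM1 and 4327 with siLuc (-0.20). The direction of TOP2A is thus not settled between its own probe sets.

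**Figure D3:**
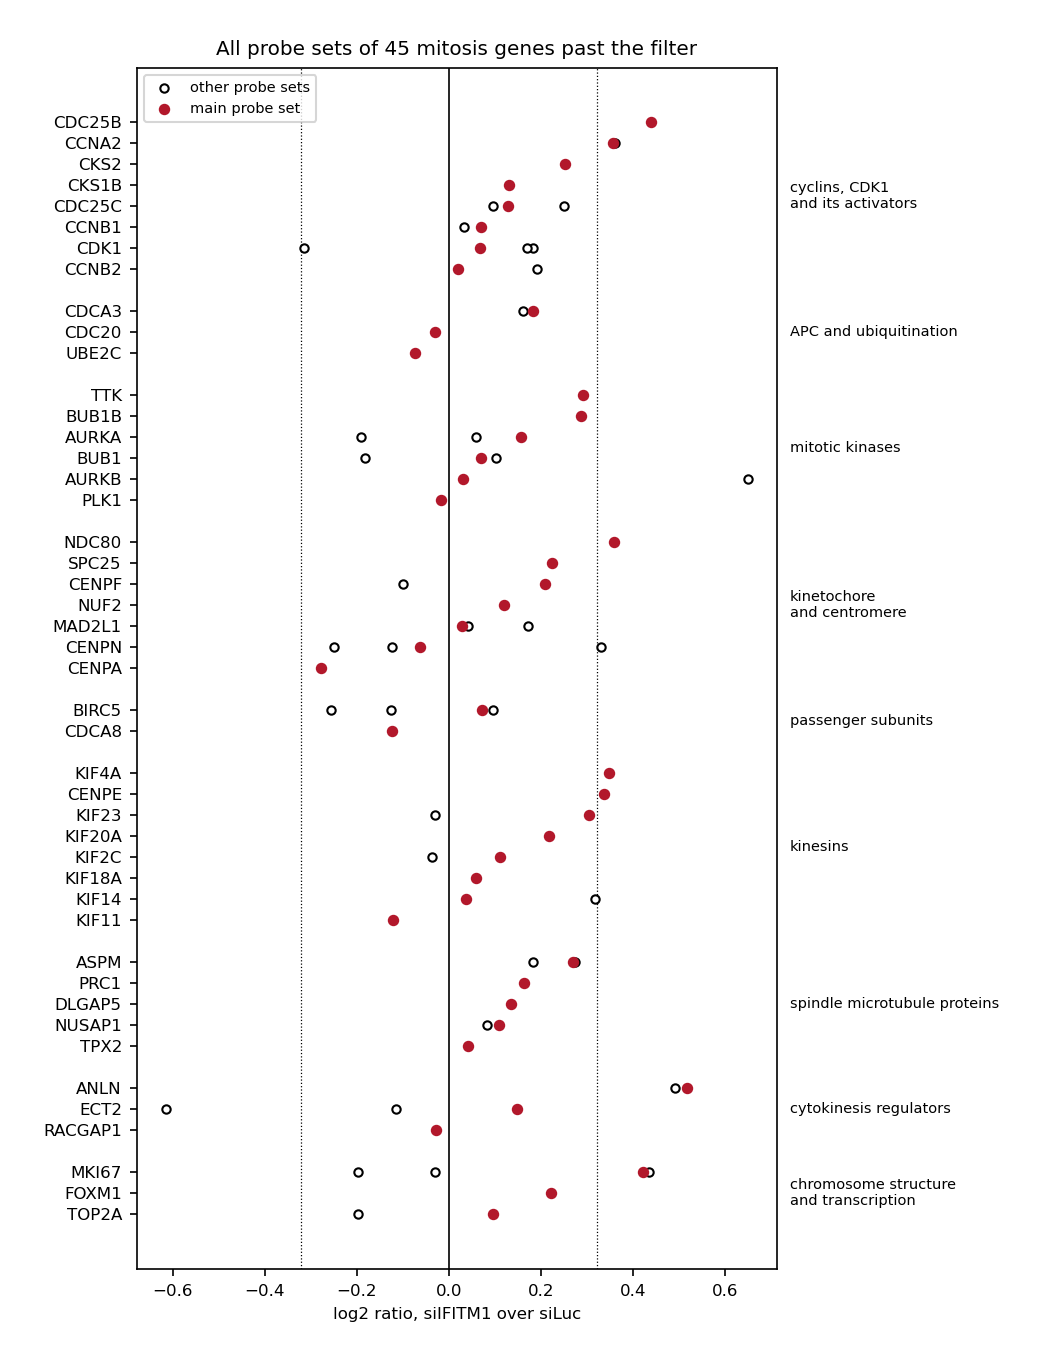
Log2 ratio of siIFITM1 over siLuc (horizontal axis) of each probe set past the filter for the 45 mitosis genes, grouped by role, with the main probe set filled red, others open, and dotted lines at 25% higher and 20% lower. Genes such as ANLN, CCNA2 and ASPM have tightly placed points to the right of 0, whereas CDK1, CENPN, ECT2, MKI67 and TOP2A have points on both sides.

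Among the 22 members with several probe sets past the filter, 11 had all of them higher with siIFITM1. These were CCNA2, CCNB1, CCNB2, CDC25C, CDCA3, AURKB, MAD2L1, KIF14, ASPM, NUSAP1 and ANLN. In none of the 22 were all probe sets lower, and in the other 11 (50%) the probe sets lay on both sides of 0. Of 3164 genes with several probe sets in the signal range of the members, all were higher in 25.4%, all were lower in 23.4% and both sides occurred in 51.2%. Probe sets of the members thus disagreed in direction in about the same share of genes as in this background. Over all 81 member probe sets past the filter, 58 were higher with siIFITM1 (71.6%, against 51.3% of 11156 probe sets of genes in the same signal range and 47.9% of 23024 of all genes), with a median of 0.10. The second-brightest probe sets alone, 22 in number, had a median of 0.09 and 15 above 0, where the main probe sets of the same 22 genes had 0.11. The 5 member probe sets below the filter, of BUB1, CCNB2, CENPF and TOP2A, were too dim to be read.

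Promoters of genes of late cell cycle stages are known to carry CCAAT boxes, bound by the factor NF-Y, and cell cycle genes homology regions with the letters TTTGAA, bound by the MuvB core of the DREAM and MYB-MuvB complexes. Both were looked for on both strands in the 250 bases before the start of each gene in RefSeq promoters of the build GRCh38.p14. Of the 45 genes 38 matched, and the first start listed was used for each. CCAAT was found in 30 of these 38 (78.9%), against 33% of 27305 promoters in the table, and 17 of the 38 (44.7%) held it more than 1 time, against 10%. TTTGAA was found in 21 of 38 (55.3%), against 13.6% of all promoters and 8.77% of 4300 promoters of genes in the same signal range. Both occurred together in 19 of 38 (50%), against 4.85% of all. Of the 4300 promoters in the same signal range, 36.9% held CCAAT, 13.6% held it more than 1 time and 3.95% held both motifs. Other mitosis genes, on further lists described below, shared part of this excess. Of their 94 promoters 57.4% held CCAAT, 29.8% held it more than 1 time, 25.5% held TTTGAA and 18.1% held both. A match is a run of letters and not a measured binding site.

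The promoters of 4 members at least 25% higher and of CENPA, the lowest member, are shown to let these letters be read in place. They run from 5′ to 3′ on the strand of the gene, end at the base before the start, and have each match in capitals. A CCAAT on the other strand reads ATTGG here, and a TTTGAA on the other strand reads TTCAAA. The positions are ANLN, chr7:36389612-36389861 (plus strand), MKI67, chr10:128126424-128126673 (minus strand), CCNA2, chr4:121823884-121824133 (minus strand), KIF4A, chrX:70289854-70290103 (plus strand), and CENPA, chr2:26785806-26786055 (plus strand).
ANLN: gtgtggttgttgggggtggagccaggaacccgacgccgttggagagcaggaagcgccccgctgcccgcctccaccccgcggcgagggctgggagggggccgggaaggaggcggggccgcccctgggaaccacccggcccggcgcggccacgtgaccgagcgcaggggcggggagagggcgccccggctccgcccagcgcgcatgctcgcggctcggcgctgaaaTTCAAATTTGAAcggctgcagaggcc
MKI67: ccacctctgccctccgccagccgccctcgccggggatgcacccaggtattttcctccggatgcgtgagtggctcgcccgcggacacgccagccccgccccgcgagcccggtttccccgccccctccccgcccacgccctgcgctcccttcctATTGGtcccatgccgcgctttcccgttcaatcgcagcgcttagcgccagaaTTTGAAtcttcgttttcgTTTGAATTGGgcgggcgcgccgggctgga
CCNA2: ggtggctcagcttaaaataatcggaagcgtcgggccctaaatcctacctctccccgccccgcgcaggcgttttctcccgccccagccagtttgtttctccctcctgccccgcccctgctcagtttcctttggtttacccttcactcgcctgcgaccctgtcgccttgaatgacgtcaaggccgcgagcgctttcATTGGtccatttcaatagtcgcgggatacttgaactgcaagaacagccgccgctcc
KIF4A: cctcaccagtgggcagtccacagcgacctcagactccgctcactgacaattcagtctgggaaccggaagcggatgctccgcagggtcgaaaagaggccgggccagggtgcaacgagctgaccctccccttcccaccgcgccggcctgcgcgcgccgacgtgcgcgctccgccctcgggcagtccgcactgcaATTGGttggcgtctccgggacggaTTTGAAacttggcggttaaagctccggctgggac
CENPA: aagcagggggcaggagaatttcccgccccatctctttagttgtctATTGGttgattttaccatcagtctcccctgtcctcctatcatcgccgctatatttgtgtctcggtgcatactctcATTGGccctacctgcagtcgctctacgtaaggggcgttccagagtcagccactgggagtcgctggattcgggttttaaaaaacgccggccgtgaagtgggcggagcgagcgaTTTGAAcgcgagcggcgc

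ANLN held TTTGAA on both strands back to back and no CCAAT, and MKI67 held 2 of each, with an ATTGG that overlaps the end of a TTTGAA. KIF4A had 1 of each, CCNA2 had 1 ATTGG and no TTTGAA, and CENPA had 2 ATTGG and 1 TTTGAA. The windows of CDC25B, NDC80 and CENPE, also at least 25% higher, held neither motif, which says only that these letters are not in those bases. With 50 bases after the start added, NDC80 held 1 TTTGAA, and CDC25B and CENPE still held neither motif. Members with and without TTTGAA had similar medians. The 21 members with TTTGAA had a median log2 ratio of 0.14 and 16 above 0, and the 17 without it had 0.12 and 16 above 0. For CCAAT the 30 members with it had a median of 0.10 and 24 above 0, and the 8 without it had 0.31 and all 8 above 0. By main values CENPA, with both motifs, and ANLN, with TTTGAA, stood at opposite ends of the set. The uncounted probe set that also names CENPA was at 0.05.

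Other genes of cell division were read from 5 further lists that share no gene with the 45. Of 111 genes on them 108 passed the filter, and 72 of these (66.7%) were higher with siIFITM1, against the 47.4% of all genes, with a median log2 ratio of 0.08. At least 25% higher were 14 (13%, against 12.9% of all genes) and 3 were at least 20% lower (2.78%, against 17.4%). Most of the 108 were bright, with 99 past a filter at the 75th percentile of signal. Among the 5035 genes in the signal range of the 45, 52.7% were higher, 8.68% at least 25% higher and 6.77% at least 20% lower. Not all of the 108 lay in that range, and several were well below its lower end of 944. It is thus no matched background for the further lists. The lists differed among themselves in their medians, as follows.

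Condensin and cohesin genes, which compact chromosomes and hold sister chromatids together, were higher in 18 of 19 cases (94.7%), with a median of 0.12. Of genes in the signal range of the members 52.7% were higher, although several of these 19 were dimmer than that range. The count goes by the brightest probe set of each gene. Several of the 18 also had a probe set past the filter below 0, the lowest at -0.84, and the rest had none. The condensin II gene NCAPG2 had 3274 with siIFITM1 and 2613 with siLuc (0.33). SGO2, a shugoshin that protects centromeric cohesion, had 909 and 744 (0.29), and its relative SGO1 was at 0.32 with another probe set at -0.56. The lowest were the cohesin gene RAD21 (-0.02, with another probe set at 0.08), STAG2 (0.05) and the condensin I gene NCAPH (0.06).

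Other mitotic kinases and CDK regulators had a median of 0.22, with 11 of 14 above 0 (78.6%, against the same 52.7%). WEE1, the kinase that adds the inhibitory phosphate CDC25 enzymes remove, had 4107 with siIFITM1 and 3049 with siLuc (0.43), and a second probe set gave 0.41. WEE1 and CDC25B, which act on CDK1 in opposite directions, were thus higher by nearly the same amount. CDC25A, a further phosphatase of the family, was at 0.63, but its 3 probe sets ran down to -0.68. PLK4, the kinase of centriole duplication, was at 0.35 with another probe set at -0.07. The lowest were the G1 cyclin genes CCND1 (-0.12, with another probe set at 0.25) and CCNE1 (-0.07) and the histone H3 kinase gene HASPIN (-0.11).

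Among other spindle and cytokinesis genes 17 of 27 were above 0 (63%, against the same 52.7%), and the median was 0.12. The kinesin gene KIF20B had 2435 with siIFITM1 and 1495 with siLuc (0.70), with a second probe set at 0.04. CLASP2, a protein of microtubule plus ends, had 445 and 283 (0.65), and its 3 probe sets lay between 0.56 and 0.71. KIFC1, a minus-end-directed kinesin that clusters centrosomes, had 1427 with siIFITM1 and 970 with siLuc (0.56). On the lower side were STMN1, or stathmin, which destabilises microtubules (-0.31), and the kinesin genes KIF18B (-0.30) and KIF22 (-0.30).

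Kinetochore and APC parts outside the 45 had medians near 0. Of 32 further kinetochore and centromere genes 17 were above 0 (53.1%), with a median of 0.03. That share is close to the 52.7% of genes in the signal range of the 45, although several of these 32 were dimmer than that range. CENPC, a centromere protein (0.40), KNTC1, a checkpoint protein of the RZZ complex (0.35), and SPC24 (0.34) were the highest. The lowest were MAD2L2 (-0.40), a relative of MAD2 best known from DNA repair, the checkpoint gene MAD1L1 (-0.39) and the centromere gene CENPQ (-0.39). Of 16 genes of APC subunits and the securin axis 9 were above 0 (56.2%, also close to 52.7%), with a median of 0.02. These ran from ANAPC2, the cullin subunit (-0.22), ANAPC11, its RING partner (-0.11), and ANAPC5 (-0.11, with probe sets from -0.25 to 0.60) up to ANAPC4 (0.24), CDC27 (0.27, with probe sets down to -0.12) and ESPL1, the protease separase (0.28).

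**Figure D4:**
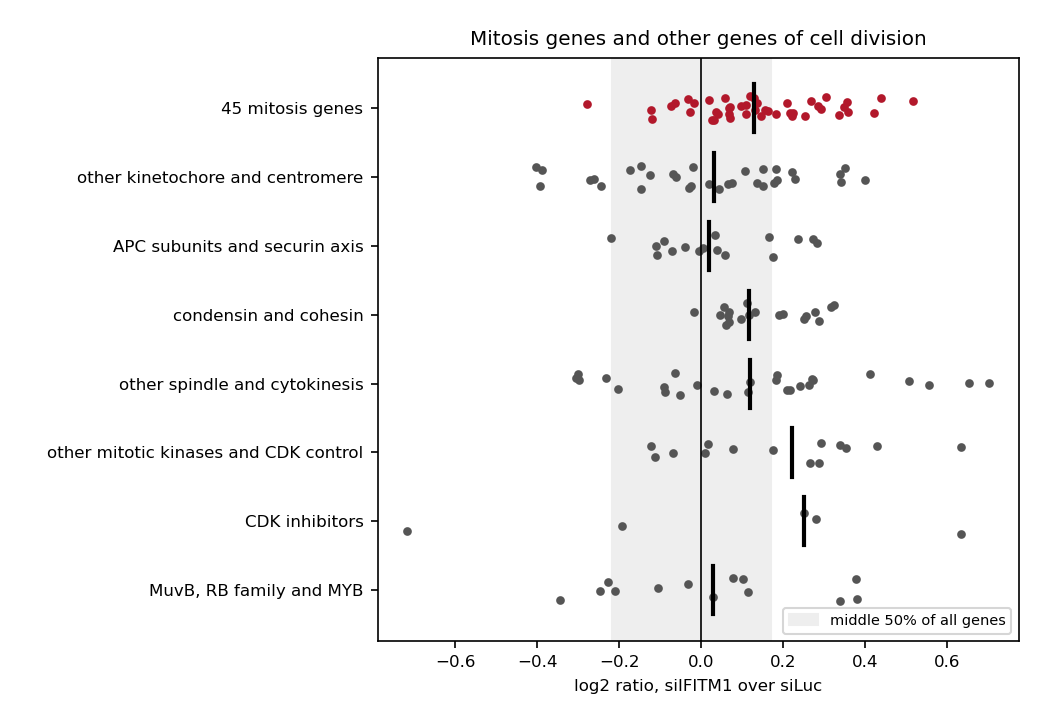
Log2 ratio of siIFITM1 over siLuc (horizontal axis) of the 45 mitosis genes (red) and of the genes past the filter on 7 further lists (grey points, spread vertically at random), with black bars at the medians and a grey band over the middle 50% of all genes. The median of the 45 is at 0.13, and those of the further mitosis lists lie between 0.02 and 0.22.

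Genes that hold division back did not share a side. CDKN1A, the p53-induced inhibitor p21, had 470 with siIFITM1 and 387 with siLuc (0.28). CDKN1B, or p27, had 2606 and 2979 (-0.19), and CDKN1C, or p57, had 356 with siIFITM1 and 585 with siLuc (-0.72), with all 4 of its probe sets lower, by -1.27 to -0.41. CDKN2C, also on this list of 6 genes, was not analysed here. The INK4 inhibitors also lay on both sides. CDKN2D and CDKN2B were at 0.25 and 0.63, CDKN2B with another probe set at -1.14. CDKN2A, which is not on the list and was added after its value was seen, had 10124 with siIFITM1 and 12061 with siLuc (-0.25), and its second probe set was at -0.11.

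Regulators of mitotic transcription, the MuvB, RB and MYB proteins, had a median of 0.03 over 13 genes, with 7 above 0. MYBL2, the MYB partner of MuvB, had 3099 with siIFITM1 and 3166 with siLuc (-0.03). The MuvB genes LIN9 (-0.21), LIN37 (-0.34), LIN52 (0.10), LIN54 (0.11) and RBBP4 (-0.23) lay on both sides, as did the pocket protein genes RB1 (0.03), RBL1 (0.34) and RBL2 (-0.25). Several had a probe set of the opposite sign, up to 0.36 for RBBP4 and down to -0.10 for RB1 and -0.26 for RBL1. E2F3 had 1623 with siIFITM1 and 1250 with siLuc (0.38), and both of its probe sets were higher. Values for the other E2F genes were 0.08 for E2F1, -0.11 for E2F4 and 0.38 for E2F5. The other probe sets of E2F1 and E2F5 were at -0.40 and -0.13.

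The median of the mitosis genes was above that of all genes under each of the 8 other ways of processing that were tried. Of the 45 genes, 31 were above 0 under each setting that could read them, 5 were below 0 under each, and 9 changed side. The 5 were CENPA, CENPN, CDCA8, KIF11 and UBE2C. No setting used the probe set annotated to both CENPA and SLC35F6. Of the 9, CDC20, PLK1 and RACGAP1 crossed 0 only under median centring, which adds the same amount to every gene and put these 3 at 0.02 or less. The other 6, AURKA, BIRC5, BUB1, ECT2, KIF23 and TOP2A, crossed 0 with the mean over probe sets or without probe sets that share probes. Without probe sets whose probes are shared between transcripts, which read 23 of the 45 main values, 32 members could be read, 23 of them above 0 (71.9%, against 48.4% of all genes so read) with a median of 0.09.

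**Figure D5:**
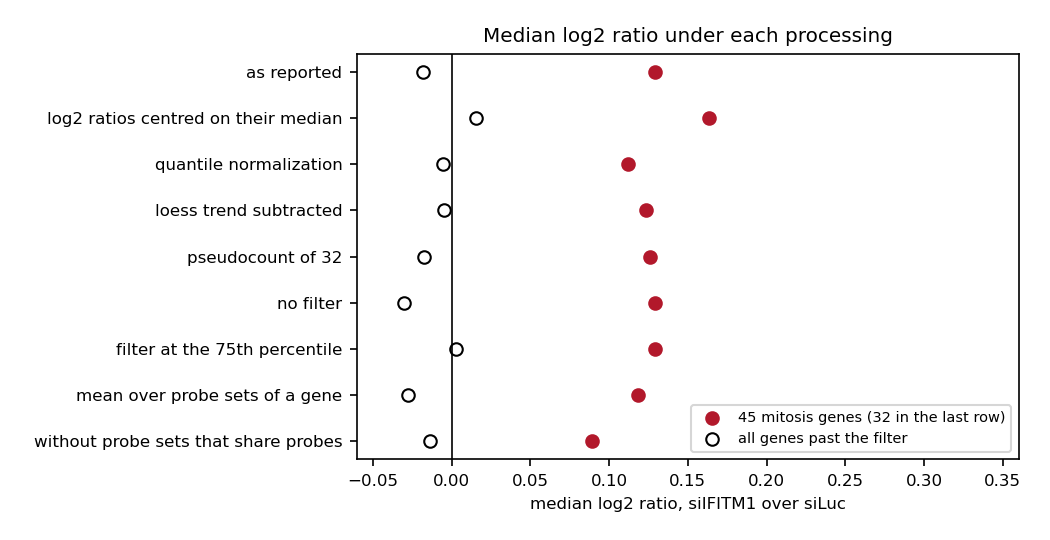
Median log2 ratio of siIFITM1 over siLuc (horizontal axis) of the mitosis genes (filled red) and of all genes past the filter (open), as reported and under 8 other ways of processing. The filled points lie between 0.09 and 0.16 and the open points between -0.03 and 0.02.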

How the data were processed

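Per the labels, total RNA of HT-29 cells was column purified, amplified and labelled with biotin. The deposited values are intensities, MAS5 signals on a linear scale that the authors made per probe set, per the submitters' processing notes, whose version the sources used here do not give. Both arrays had the same mean signal, 500.1, when 2% of probe sets were trimmed from either tail, as scaling to a common target gives. Precision is limited by the number of arrays.

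Of 54613 probe sets that are not controls, 41091 named 1 gene, 1801 several and 11721 none. Symbols were updated by Entrez identifier in a RefSeq table of GRCh38.p14 (99.9% matched). Without a pseudocount, log2 values were computed here from the deposited signals. The filter kept genes whose brightest probe set had a mean log2 signal at or above the median of probe sets that are not controls. All 45 members are named, along with the 3 highest and 3 lowest genes of each further mitosis list and every measured gene of a list of 6 CDK inhibitors and of a list of 13 MuvB, RB and MYB genes. INCENP and CDKN2A lie outside this rule and were named after their values were seen. The members, lists and threshold of 25% higher (20% lower) were chosen with earlier results of these data known. The calculation was tested on simulated arrays. Python 3.11.15, numpy 2.4.6, pandas 2.3.3, statsmodels 0.14.6 and matplotlib 3.10.9 were used. Alternatives were the mean over probe sets, a filter raised to the 75th percentile, omission of the filter, a pseudocount of 32, subtraction of a loess trend (span 0.3), quantile normalization, median centring and omission of probe sets with IDs ending in _x_at or _s_at, with thresholds of 1.5-fold and 2-fold. The background of genes in the same signal range and a promoter window of 300 bases, 250 before and 50 after the start, were added after the data were seen.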

Additional observations from a re-analysis of the deposited data

How the results depend on the processing

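Moves of a median are given where they exceed 0.193, the SD between bright probe sets of the same gene, divided by the square root of the number of genes. Centring log2 ratios on their median, which raises every gene alike, moved the median of the 45 genes to 0.163, that of the further mitosis lists together to 0.111, the APC group to 0.00325 and the passenger subunits to 0.00813, both of which had been below 0. With the mean over probe sets, the cytokinesis regulators were at -0.027 and other mitotic kinases and CDK regulators at 0.162. Without probe sets that share probes, fewer genes could be read, the median of the members was 0.0891 with 23 genes higher and 1, ECT2, at least 20% lower, and group medians were 0.0538 for the APC group, -0.255 for BIRC5 as the single passenger subunit, -0.0621 for 2 cytokinesis regulators, -0.198 for TOP2A alone and 0.0903 for the further APC and securin genes. At thresholds of 1.5-fold and 2-fold, 0 members were called higher or lower. With a window of 300 bases, 250 before and 50 after the start, TTTGAA was found in 76.3% of member promoters. The share was 15.4% of all promoters and 40.4% of those of the further mitosis lists. Of the other values for single genes under these settings, 339 moved by less than 0.193 and 8 by more. Why values differ between probe sets of a gene was not tested. With 1 array per siRNA, no value has an error between cultures, and no paired analysis was possible because each group holds 1 sample.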
